A study of Rattus norvegicus with 8 samples.

Results

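Among autosomal CpG dyads of the rat genome that were well covered in every library, 1639 of 392565 had a methylation level that differed by 50 percentage points or more between libraries of the same brain region. A CpG dyad is a C followed by a G together with the mirrored pair on the opposite strand. Its level in a library is the share of calls that were methylated, with both strands added where the deposited data list both. Dyads on chromosomes 1 to 20 were kept when they had 20 or more calls in all 8 libraries and when the highest minus the lowest library level reached 50 points within the 4 hippocampus or within the 4 hypothalamus libraries. They are called wide-range dyads here, and the range is the quantity that chose them.

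The libraries came from male Sprague Dawley rats assigned at 2 months of age to a diet supplemented with DHA, the omega-3 fatty acid docosahexaenoic acid, and kept on it for 6 weeks, with 4 libraries from dissected hippocampus and 4 from dissected hypothalamus. A chow-fed group of the study was not analysed here, so all 8 libraries share the diet. The treatment field of the labels speaks of fructose and/or DHA for the study as a whole, while the label of each library used here gives DHA only. Replicate numbers 1 to 4 occur in both tissues, but the labels do not say which animal gave which library. Whether part of the spread between replicates is technical was not tested.

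In mammals, DNA methyltransferases copy methylation from the old to the new strand at CpG dyads, and most CpGs outside CpG islands carry it in most cells. Intermediate levels in a tissue can arise from a mixture of cell types or from a difference between the chromosomes inherited from each parent, as at imprinted loci. Bisulfite treatment converts unmethylated cytosine so that it is read as T, and a T in the genome is read in the same way. Sprague Dawley rats are an outbred stock, so animals can differ in genome sequence. Reduced representation bisulfite sequencing (RRBS) cuts DNA with MspI, whose recognition site holds a CpG, and therefore samples short CpG-rich fragments.

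The sequences of 6 places are shown because the results below turn on them: a tight run of 5 wide-range dyads, a run in which members move in opposite directions, a dyad that stands alone among 17 neighbours of which none varied with it, a pair of dyads with a hypothalamus range of 100 points, and a dyad with a difference between tissues. Each was read 5′ to 3′ on the plus strand of build rn5 from the base, context and dinucleotide columns of the deposited data. Capitals mark the wide-range dyads, and n marks a base those columns do not determine.
Run on chromosome 10, chr10:107472518-107472567: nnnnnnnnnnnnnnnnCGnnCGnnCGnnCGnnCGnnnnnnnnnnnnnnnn
Run on chromosome 14, chr14:46589896-46589977: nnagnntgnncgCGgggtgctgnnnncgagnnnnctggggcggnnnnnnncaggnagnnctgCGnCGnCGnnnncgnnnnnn
Lone dyad on chromosome 1, chr1:85941988-85942029: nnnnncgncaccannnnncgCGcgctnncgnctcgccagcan
Widest in hypothalamus on chromosome 9, chr9:34823693-34823734: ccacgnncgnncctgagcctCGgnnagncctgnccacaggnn
Widest in hypothalamus on chromosome 18, chr18:45460606-45460647: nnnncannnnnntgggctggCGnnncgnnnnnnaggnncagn
Tissue difference on chromosome 14, chr14:6880301-6880342: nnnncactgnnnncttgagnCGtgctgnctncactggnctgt
In the first run the 5 dyads follow each other at a spacing of 4 bases. In the lone example on chromosome 1 the wide-range CG stands between other CG dyads without a base in between.

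The rule picked 956 dyads by their hippocampus levels (0.244% of all dyads) and 1262 by their hypothalamus levels (0.321%), and 579 met it in both tissues. Another 377 met it in hippocampus only and 683 in hypothalamus only, and the 1639 dyads in all are 0.418% of those covered. A range of 80 points or more was reached by 453 dyads and one of 90 points or more by 222, while 3463 dyads reached 40 points. For comparison, the median range over all 217395 dyads with a mean level of 5% to 95% was 8.79 points in hippocampus and 11.5 points in hypothalamus. Most wide-range dyads had an intermediate mean level, with a median of 52.1% and 87.1% of them between 20% and 80%, against 23.9% of all dyads. These values describe what the rule selected and are not tested.

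Dyads lay close to the threshold on either side. Just inside it was the dyad at chromosome 2, 206116793, with levels of 0%, 50%, 1.33% and 1.04% in hippocampus 1 to 4, with 4.35%, 54%, 4.76% and 2.86% in hypothalamus 1 to 4. In both tissues the library numbered 2 was at an intermediate level and the other libraries were near 0. Just outside it, the dyad at chromosome 20, 47771022, had 91.6%, 44.2%, 94.2% and 85.7% in hippocampus 1 to 4, where library 2 was the one apart. The library apart was not the same at all dyads near the threshold. In hypothalamus 1 to 4 the dyad on chromosome 20 had 97.8%, 94.9%, 79.2% and 91.7%, with no such low library.

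The libraries were not equally deep. Their listed calls ran from 509259699 to 625653602 in hippocampus and were 467623585, 572801479, 178178404 and 259930295 in hypothalamus 1 to 4. At the wide-range dyads the median number of calls was 75 to 91 in the hippocampus libraries and 66, 76, 27 and 38 in hypothalamus 1 to 4. For every wide-range dyad the 95% Wilson interval of the highest library lay apart from that of the lowest in the tissue that chose it. These intervals cover counting error only, since duplicate reads are not described, and the rule itself selects for such gaps. To compare depth within a dyad, calls were divided by the library's own median over all covered dyads. The ratio of this relative depth, library of lowest level over library of highest, had a median of 1.01 in hippocampus and 0.972 in hypothalamus. Over 92323 other dyads with a mean level of 20% to 80% the medians were 1.01 and 0.947. The 5th percentile of the ratio in hippocampus was 0.583 at wide-range dyads and 0.736 at the other dyads. In hypothalamus these were closer, at 0.499 and 0.518. The part of depth in the ranges was not tested. The share of wide-range dyads per chromosome ran from 0.208% on chromosome 19 to 0.620% on chromosome 20.

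Dyads chosen in one tissue were also wide in the tissue that had no part in the choice. The 956 dyads chosen in hippocampus had a median range of 54.7 points in hypothalamus, and 579 of them (60.6%) reached 50 points there, against 0.321% of all dyads. The 1262 dyads chosen in hypothalamus had a median range of 48.4 points in hippocampus, and 579 (45.9%) reached 50 points there, against 0.244%. A range under 25 points in the other tissue was found at 82 (8.58%) of the hippocampus-chosen and 225 (17.8%) of the hypothalamus-chosen dyads. Libraries 1 and libraries 4 had nearly the same levels in both tissues, as given below, so the other tissue is not an independent repeat.

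In the tissue that did not choose them, levels gathered near 0, near 50% and near 100%. Levels of 20% or less are called low, 30% to 70% middle and 80% or more high. At hypothalamus-chosen dyads the hippocampus libraries had 17.6% to 23.1% of dyads low, 43.6% to 44.9% middle and 25.9% to 27.2% high. The gaps between these classes, which cover 20 of 100 points, held 7.37% to 11.5%. At hippocampus-chosen dyads, hypothalamus 1, 3 and 4 had 22.8% to 27.2% low, 36.0% to 42.2% middle and 27.2% to 29.9% high, with 5.86% to 7.95% in the gaps.

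Hypothalamus 2 stood apart from the other libraries. At hippocampus-chosen dyads it had 15.8% of dyads low, 47.6% middle and 22.4% high, and 14.2% in the gaps between classes. Only 10.3% of its dyads were at 10% or less, against 20.7% to 24.8% in the other hypothalamus libraries. Its median depth at wide-range dyads was 76 calls. Whether it holds DNA of more than 1 animal was not tested, and its values below are to be read with that limit. Without it the rule gave 1378 wide-range dyads in place of 1639, much as without hypothalamus 3 (1367) or hypothalamus 4 (1383), and without hypothalamus 2 and 3 together it gave 1101.

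**Figure D1:**
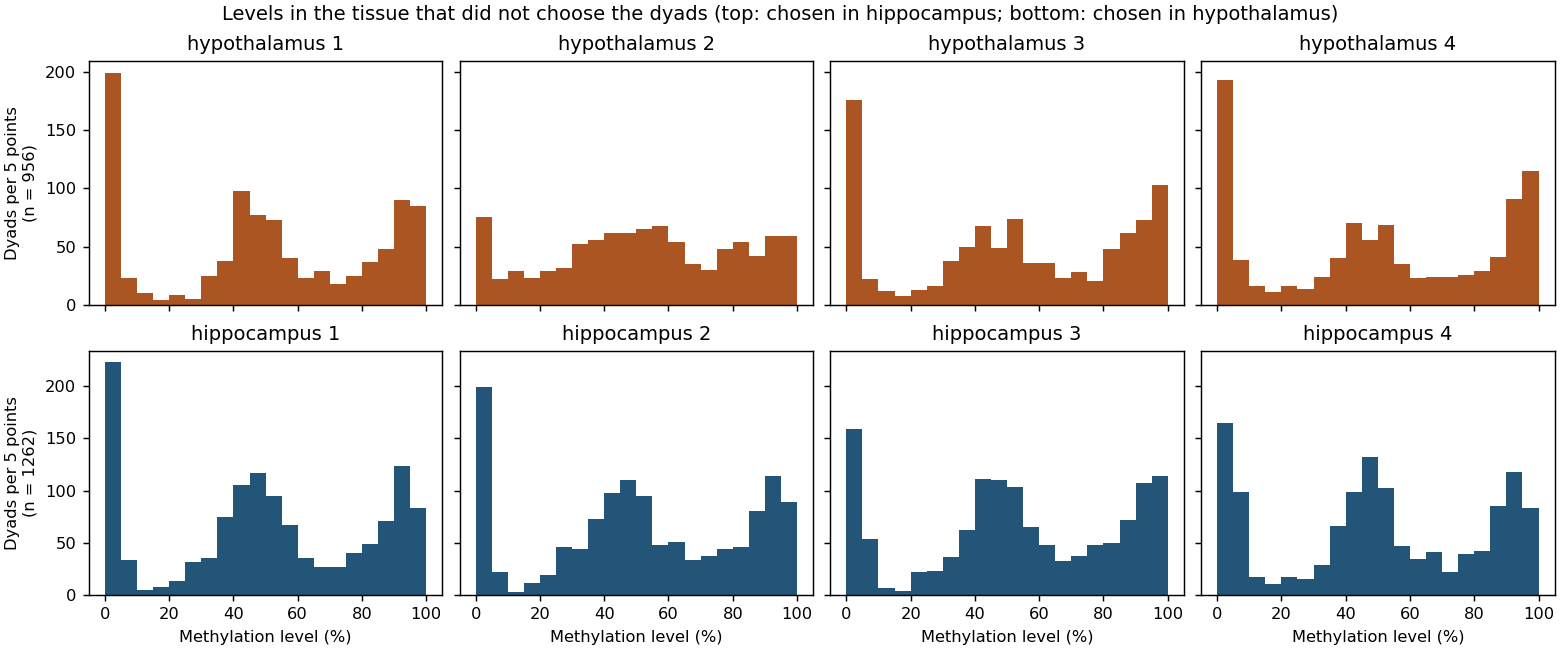
Number of dyads (vertical axes) by methylation level in percent (horizontal axes), for hippocampus-chosen dyads in each hypothalamus library and for hypothalamus-chosen dyads in each hippocampus library. Counts pile up near 0%, 50% and 100% in 7 libraries and are flatter in hypothalamus 2, where 14.2% of dyads lie between the classes.

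The libraries numbered 1 in both tissues had nearly the same levels at these dyads, and so had the libraries numbered 4. At hippocampus-chosen dyads the mean absolute difference between hippocampus 1 and hypothalamus 1 was 5.79 points and that between the libraries numbered 4 was 6.35 points. The libraries numbered 2 differed by 29.2 points and those numbered 3 by 32.8 points, and the 12 pairs of unlike number ran from 29.2 to 39.1 points. At hypothalamus-chosen dyads the same 4 values were 6.82, 28.3, 29.7 and 8.44 points, and pairs of unlike number ran from 28.2 to 37.2 points.

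Where both libraries could be placed in a class, libraries 1 shared it at 98.1% of 857 hippocampus-chosen dyads and libraries 4 at 98.1% of 842. The other 14 pairs shared it at 31.4% to 50.5%. At hypothalamus-chosen dyads the shares were 96.8% of 1080 for libraries 1, 94.4% of 1063 for libraries 4 and 33.2% to 50.8% for the other pairs. Dyads with either library in a gap between classes are left out of these shares.

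The design allows 24 assignments of the 4 numbers, so the smallest 2-sided p is 0.0417. The mean difference of same-numbered pairs minus that of unlike-numbered pairs was -15.8 points at hippocampus-chosen dyads (exact permutation p = 0.0833) and -13.8 points at hypothalamus-chosen dyads (exact permutation p = 0.0833). In each set 1 of the 24 assignments gave a lower value than the labelled one. Over the numbers as a whole, the closeness of same-numbered libraries therefore did not pass 0.05, and it rested on numbers 1 and 4. With number 1 left out the value was -10.0 points at hippocampus-chosen and -8.83 points at hypothalamus-chosen dyads.

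Over the 92323 other dyads of middle mean level, the pairs of libraries 1 and 4 did not stand out to that degree. There the mean absolute difference was 10.6 points for libraries 1, 12.2 points for libraries 4 and 9.59 to 14.4 points for the other 14 pairs. Whether libraries of equal number came from the same animal is not given by the labels.

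**Figure D2:**
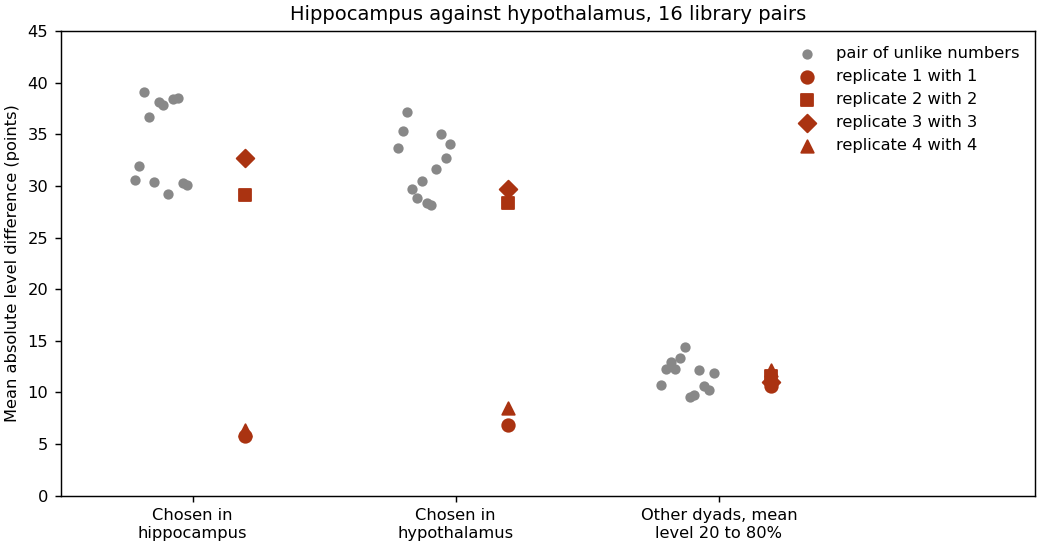
Mean absolute difference in methylation level, in percentage points (vertical axis), for each of the 16 pairs of a hippocampus and a hypothalamus library, at hippocampus-chosen, hypothalamus-chosen and other dyads. The pairs 1 with 1 and 4 with 4 lie between 5.79 and 8.44 points at the chosen dyads, and all other pairs there lie at 28.2 points or more.

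**Figure D3:**
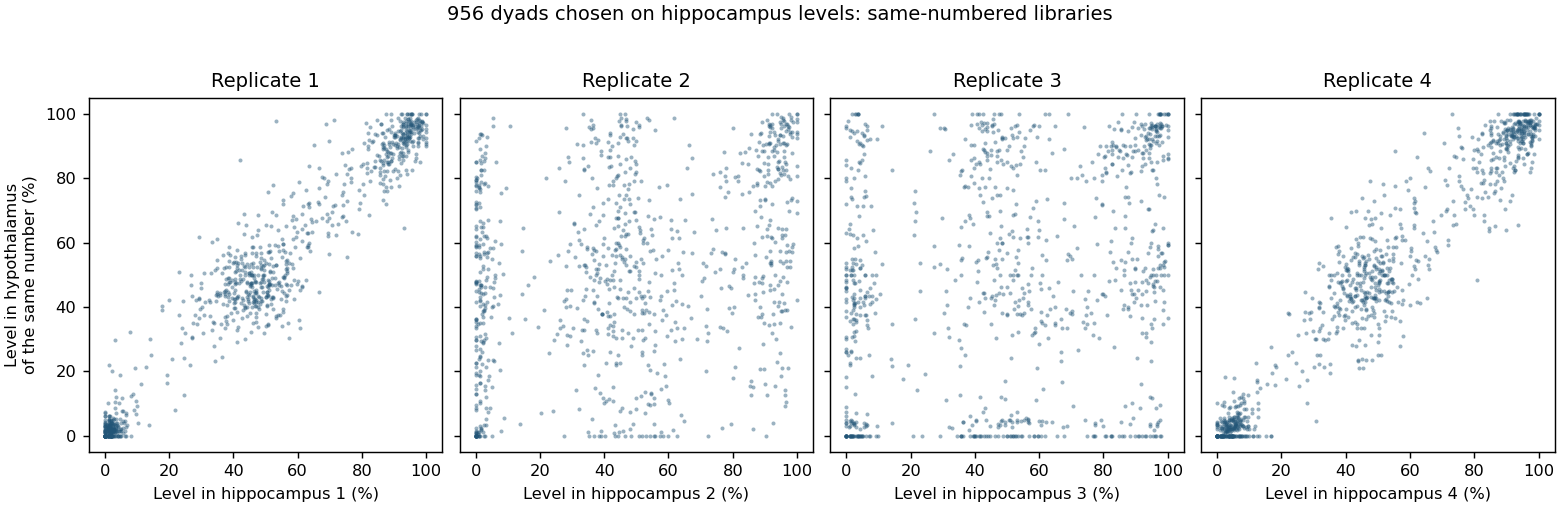
Level in hypothalamus (vertical axes, percent) against level in hippocampus (horizontal axes, percent) for libraries of the same number, with 1 point per hippocampus-chosen dyad. For numbers 1 and 4 the points gather around the diagonal in groups near 0%, 50% and 100%. For numbers 2 and 3 they spread away from the diagonal, and levels between these groups are more frequent in hypothalamus 2.

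Single dyads show the same picture. At chromosome 9, 34823713, the sequence of which is printed above, hippocampus 1 to 4 had 94.7%, 1.64%, 4.03% and 46.8% and hypothalamus 1 to 4 had 100%, 81.1%, 0% and 43.3%, with 35 to 154 calls per library. Numbers 1 and 4 took the same class in both tissues, one high and one middle, and number 3 was low in both. Number 2 was low in hippocampus and high in hypothalamus.

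At chromosome 18, 45460626, also printed above, the levels were 3.60%, 85.0%, 40.6% and 85.7% in hippocampus 1 to 4, against 0%, 89.3%, 100% and 88.0% in hypothalamus 1 to 4. Here number 1 was low and numbers 2 and 4 were high in both tissues, and number 3 was middle in one and high in the other. The dyad at chromosome 9, 113992394, which had a hippocampus range of 100 points, had 0%, 54%, 55% and 100% in hippocampus 1 to 4, with 6.98%, 38.5%, 86.7% and 95% in hypothalamus 1 to 4. All 3 classes occurred among the libraries of each tissue.

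Other dyads of large range had a single library apart in at least 1 tissue. At chromosome 6, 47478624, hippocampus 1 to 4 had 1.06%, 1.09%, 100% and 1.01%, and hypothalamus 1 to 4 had 2.38%, 1.06%, 36.7% and 0%. Number 3 was the one library above the rest in both tissues, at unequal levels. At chromosome 20, 28091484, the levels were 92.9%, 0%, 100% and 92.6% in hippocampus 1 to 4, against 93.9%, 55.7%, 95% and 100% in hypothalamus 1 to 4. Number 2 was the lowest in both tissues. At chromosome 9, 105400316, the levels were 94.1%, 94.0%, 4.30% and 93.6% in hippocampus 1 to 4, with 100%, 40.2%, 0% and 89.7% in hypothalamus 1 to 4. Number 3 was near 0 in both tissues and number 2 was lowered in hypothalamus alone.

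Most wide-range dyads had no neighbour that varied alike, and few covered dyads had a range that could qualify. A neighbour is another covered dyad within 300 bases, and it was said to vary alike when its own range was at least 25 points and its correlation with the wide-range dyad over the 4 libraries of that tissue was at least 0.8. By this rule 1320 of the 1639 dyads (80.5%) had neighbours of which none varied alike, 268 (16.4%) had at least 1 that did, and 51 (3.11%) had no covered neighbour. Of the 268 accompanied dyads, 177 had 1 such neighbour, 43 had 2, 18 had 3 and 30 had 4 or more. Lone dyads had a median of 3 neighbours and accompanied ones of 5, so the accompanied had more neighbours that could qualify. Over all 392565 covered dyads, 21809 (5.56%) had a range of 25 points or more in either tissue. The share of lone dyads is therefore a description and is not read as a trait of wide-range dyads.

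Neighbours of lone dyads were mostly methylated. Over 6850 pairs the neighbour's range had a median of 7.81 points and a 90th percentile of 18.5 points. A pair was counted in each tissue where the lone dyad was wide, with the neighbour's range and mean in that tissue. The definition of a lone dyad removes neighbours that varied alike, so these ranges are a description, and over the pairs of all wide-range dyads the median was 7.02 points in hippocampus and 9.88 points in hypothalamus. In 77.9% of the 6850 pairs the neighbour had a mean level of 80% or more, and in 0.540% one of 20% or less. Lone dyads reached a range of 80 points in 391 cases (29.6%) and accompanied dyads in 50 (18.7%), and they were wide in both tissues in 485 (36.7%) and 81 (30.2%) cases.

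The lone dyad with most neighbours lay at chromosome 10, 3341828, with 0%, 0%, 54.5% and 1.82% in hippocampus 1 to 4, against 0%, 35.4%, 0% and 2.86% in hypothalamus 1 to 4. Its 18 neighbours had levels of 88.2% to 100% in all 8 libraries, so a dyad at or near 0 in 6 libraries lay among methylated ones. Number 3 was raised in hippocampus and number 2 in hypothalamus.

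At chromosome 1, 85942008, the lone dyad printed above, the levels were 41.2%, 98.4%, 91.8% and 50.6% in hippocampus 1 to 4, with 53.2%, 94.5%, 97.0% and 48.4% in hypothalamus 1 to 4. Numbers 2 and 3 were high and numbers 1 and 4 middle in both tissues. Both CG dyads that touch it stayed at 87.9% or more in every library. Among all 17 neighbours levels ran from 56.5% to 100%, with a largest range of 28.4 points in hippocampus and 15.1 points in hypothalamus. The third lone dyad of this kind, at chromosome 16, 83585032, with 14 neighbours, had 71.6%, 95.2%, 41.1% and 50.4% in hippocampus 1 to 4, against 71.6%, 38.8%, 54.5% and 47.6% in hypothalamus 1 to 4. Its numbers 1 and 4 had almost equal levels in both tissues, and number 2 was the highest in one and the lowest in the other.

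Lone and accompanied dyads were alike in that libraries 1 and libraries 4 were the closest pairs. At hippocampus-chosen lone dyads the mean absolute differences of libraries 1 and of libraries 4 were 5.63 and 6.03 points, and other pairs ran from 28.8 to 39.2 points. At the 130 accompanied ones they were 6.41 and 8.39 points, against 27.4 to 41.3 points. At the 219 accompanied dyads chosen in hypothalamus they were 8.53 and 13.8 points.

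Pairs that varied alike were a small share of all pairs of a wide-range dyad and a neighbour. The range of 25 points that this asks for was reached in either tissue by 5.56% of all covered dyads. In hippocampus 192 of 3876 pairs (4.95%) varied alike and 58 (1.496%) varied oppositely, which means a neighbour range of at least 25 points with a correlation of -0.8 or less. In hypothalamus 361 of 4836 pairs (7.46%) varied alike and 66 (1.36%) oppositely. At 2 bases 12.5% of 48 pairs in hippocampus and 7.69% of 52 pairs in hypothalamus varied alike. At 3 to 10 bases 10.8% of pairs in hippocampus and 14.7% in hypothalamus varied alike, and at 51 to 100 bases 3.73% and 7.06% did. Beyond 200 bases the shares were 7% and 4.51%, on 200 and 266 pairs. In hypothalamus the share fell at each step from 3 to 10 bases onward, with 8.05% at 11 to 50 and 4.92% at 101 to 200 bases. In hippocampus it was 4.41% and 4.17% at these distances and did not fall evenly. Pairs share members and libraries, and no test was made of these shares.

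Many pairs fell in the same class in the tissue that was not used to class them. Of the 192 pairs alike in hippocampus, 108 (56.3%) were alike in hypothalamus and 0 opposite, and of the 58 opposite pairs 29 (50%) were opposite there and 0 alike. Among the 3626 pairs that were neither, 0.965% were alike and 0.607% opposite in hypothalamus. In the reverse direction 146 of 361 pairs (40.4%) stayed alike and 35 of 66 (53.0%) stayed opposite in hippocampus. The remaining pairs fell short of the range or the correlation in the other tissue. Because libraries 1 and libraries 4 had nearly the same levels in both tissues at wide-range dyads, these shares are no independent repeat.

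Merging wide-range dyads no more than 300 bases apart gave 1529 runs, of which 1436 held a single dyad, 93 held at least 2 and 10 at least 3. The run with most members is that of 5 dyads in 18 bases at chromosome 10, 107472534 to 107472551, printed first above. Averaged over its dyads, hippocampus 1 to 4 stood at 38.5%, 93.0%, 43.4% and 45.6%, and hypothalamus 1 to 4 at 50%, 44.9%, 92.3% and 22.6%, with 38 to 112 calls per dyad. All 5 dyads moved as a block, with number 2 high in hippocampus and number 3 high in hypothalamus. The 2 covered neighbours, both at lower coordinates than the run, stayed between 82.9% and 98.2%.

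On chromosome 14, from 46589908 to 46589965, members of 1 run went in opposite directions. The first dyad had 41.0%, 64.3%, 43.7% and 95.3% in hippocampus 1 to 4, with 42.7%, 50%, 69.4% and 100% in hypothalamus 1 to 4. The dyad 50 bases further had 61.2%, 35.7%, 60.5% and 7.14% in hippocampus 1 to 4, against 60.6%, 49.2%, 45.7% and 5% in hypothalamus 1 to 4. Number 4 was thus the highest at the first dyad and the lowest at the other, in both tissues. A covered neighbour 19 bases before the first dyad, at 40.4%, 60.7%, 40.1% and 83.5% in hippocampus 1 to 4, kept the order of the first dyad apart from a near tie. The 2 last dyads, 3 and 6 bases beyond, followed the second one, and the dyads between these groups stayed at 86.8% or more. The sequence printed above has the opposing dyads at its start and near its end, with the steady dyads in lower case between them.

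Runs could also be wide in one tissue only. On chromosome 6, from 138345679 to 138346015, the 4 members had a mean of 40.6%, 1.71%, 44.2% and 79.8% in hippocampus 1 to 4, with 43.7%, 72.5%, 75.1% and 72.6% in hypothalamus 1 to 4. Hippocampus 2 was near 0 at all 4 dyads, and in hypothalamus library 1 was the lowest. On chromosome 12, from 27459349 to 27459549, the mean was 44.8%, 33.4%, 49.99% and 41.0% in hippocampus and 71.9%, 24.6%, 87.1% and 63.1% in hypothalamus. On chromosome 6, from 152136948 to 152137033, it was 67.2%, 70.1%, 78.05% and 68.4% in hippocampus and 73.5%, 25%, 79.8% and 50% in hypothalamus. In these 2 runs hypothalamus 2 was the lowest of all 8 libraries.

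**Figure D4:**
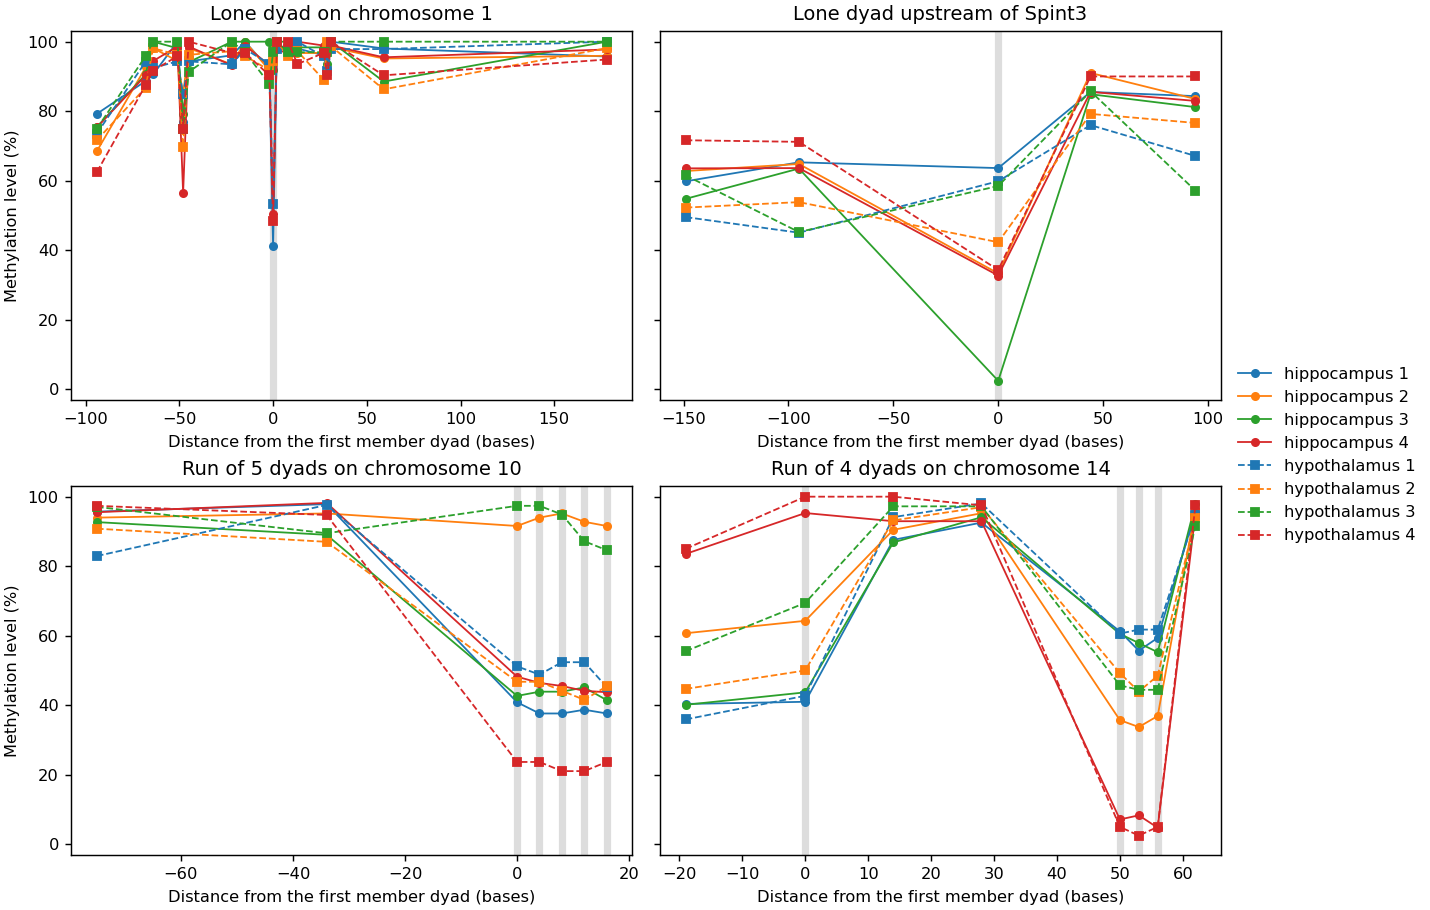
Methylation level in percent (vertical axes) of wide-range dyads and their neighbours by distance in bases from the first wide-range dyad (horizontal axes) at named places, with 1 line per library. Wide-range dyads spread over 50 points or more, while both neighbours of the run on chromosome 10 stay between 82.9% and 98.2% and most neighbours of the lone dyad on chromosome 1 stay high in all libraries.

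The strands of a dyad are read from different molecules, and the range was also split by strand where both could be read. The rule used the sum of these calls in the same tissue, so the strand ranges are a description and no independent support. Of 158 hippocampus-chosen dyads with at least 10 calls on each strand in every hippocampus library, 120 had a range of 50 points or more on both strands and 153 one of 25 points or more on both. In hypothalamus these were 156 and 200 of 203. Over 2652 dyad and library values the strands differed by a median of 5.42 points, against 6.98 points at other dyads of middle mean level. Differences of 30 points or more were nevertheless found in 9.54% of values, against 2.57% at other dyads.

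At 7 dyads, 4 chosen in hippocampus and 3 in hypothalamus, one strand had a range of 50 points or more and the other one under 25 points. At chromosome 18, 42285820, the C strand had 82.0%, 87.0%, 77.2% and 85.6% in hippocampus 1 to 4 on 61 to 195 calls, and the G strand had 13.6%, 82.4%, 53.7% and 90.8% on 119 to 147 calls. The C strand stayed at 77.2% or more in all 4 libraries, and the G strand ranged from low to high. At chromosome 2, 109881680, the C strand had 88.0% to 100% and the G strand 94.0%, 94.3%, 94.7% and 27.9% in hippocampus 1 to 4, so the low level was that of 1 strand in 1 library. These 2 dyads are named after their values were seen.

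A small share of wide-range dyads was called between the tissues. In a quasi-binomial logistic model with limma's moderated dispersion, calls needed 10 points or more between the tissue means and an adjusted p (Benjamini-Hochberg) below 0.05. Of the 1639 dyads 72 were called (4.39%), against 11.4% of all 217395 tested dyads. Of these calls 30 were higher in hypothalamus and 42 in hippocampus, while over all tested dyads 21587 (9.93%) and 3285 (1.51%) were called in these directions. Calls higher in hypothalamus were thus less frequent at wide-range dyads than over all tested dyads, and calls higher in hippocampus more frequent. The range that chose the dyads enters the dispersion, so nothing is read from the lower share or from the directions. The median difference, hypothalamus minus hippocampus, was 0.538 points at wide-range dyads and 1.33 points over all tested dyads. The tissues did not overlap at 7 wide-range dyads (0.427%), against 16.3% of all tested dyads. A wide range within a tissue leaves little room for such separation, so nothing is read from this share either.

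The called share was 4.39% of lone dyads (58, of which 20 were higher in hypothalamus and 38 in hippocampus) and 4.48% of accompanied ones (12, of which 9 and 3), against the 11.4% of all tested dyads. Whether the directions differ between these classes was not tested. At the 72 called dyads the median absolute difference between the tissues was 4.71 and 4.76 points for numbers 1 and 4 and 59.2 and 39.5 points for numbers 2 and 3. At all wide-range dyads these medians were 4.39, 24.3, 29.3 and 5.19 points for numbers 1 to 4, and at the 92323 other dyads they ran from 8.42 to 9.90 points. The called differences thus lay mainly in numbers 2 and 3. The labels do not say whether libraries 2 and 3 of both tissues came from the same animals, so a difference between tissues and one between animals cannot be told apart at these calls.

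The count of called dyads moved with single libraries and with the test, and the share of wide-range dyads called was not below that of all tested dyads in every setting. The share was above it without hippocampus 1 (249 called, 15.2% against 10.3%) and without hippocampus 4 (210, 12.8% against 10.8%), and with the replicate number as a block (471, 28.7% against 14.3%). Called dyads numbered 148 (9.04% against 9.08%) without hypothalamus 1, 136 (8.34% against 12.6%) without hippocampus 3 and 137 (8.36% against 9.51%) without hypothalamus 4. Without hippocampus 2, hypothalamus 2 or hypothalamus 3 they numbered 104, 76 and 76, or 6.39%, 4.67% and 4.66%, against 9.72%, 10.7% and 9.95%. With the dispersion of each dyad alone the count was 0, with 14 dyads at an unadjusted p under 0.05, and over all tested dyads it was also 0, with 40073 at an unadjusted p under 0.05. The limma fit on logit levels called 6 (0.366% against 9.49%).

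The called dyads whose tissues did not overlap numbered 5. Each was wide in a single tissue, and the levels that chose it also set the mean of that tissue. The differences and p-values below are therefore a description and no independent support for a tissue difference. The adjusted p-values given for these dyads rest on a dispersion moderated over all tested dyads. They do not measure the SD between the libraries of a dyad alone. With the dispersion of each dyad alone 0 wide-range dyads were called. At chromosome 6, 137659433, hippocampus 1 to 4 had 95.2%, 5.32%, 45.4% and 96.0%, and hypothalamus 1 to 4 had 100%, 98.7%, 96.6% and 100%. Hypothalamus was high throughout and hippocampus 2 and 3 were lower, a difference of 38.3 points (60.5% ± 43.7 against 98.8% ± 1.63, SD, n = 4 each, quasi-binomial test with limma, adjusted p = 0.0149). Without hippocampus 2 it was 19.95 points, and numbers 1 and 4 alone differed by 4.38 points.

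At chromosome 14, 6880321, printed above, hippocampus 1 to 4 had 1.87%, 46.5%, 58.5% and 0.962%, and hypothalamus 1 to 4 had 0% in each library. Hippocampus 2 and 3 were middle and all other libraries were at or near 0, a difference of -27.0 points (27.0% ± 29.9 against 0%, SD, n = 4 each, quasi-binomial test with limma, adjusted p = 0.00427). Without hippocampus 3 it was -16.4 points. Numbers 1 and 4 differed by -1.42 points on average.

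The others had a tissue difference in every number or in number 2 above all. At chromosome 6, 137459210, hippocampus 1 to 4 had 63.5%, 26.0%, 60.3% and 76.2%, and hypothalamus 1 to 4 had 83.9%, 83.3%, 82.5% and 89.6% (28.3 points, limma-moderated adjusted p = 0.00841). Every number was higher in hypothalamus, and without hippocampus 2 the difference was 18.1 points. At chromosome 9, 45266641, the levels were 82.0%, 90%, 87.7% and 87.0% against 68.8%, 25%, 58.3% and 75% (-29.9 points, limma-moderated adjusted p = 0.00233), lower in hypothalamus for every number and -19.3 points without hypothalamus 2. At chromosome 13, 106982463, they were 93.9%, 97.8%, 95.2% and 92.5% against 88.6%, 38.6%, 77.3% and 90.5% (-21.1 points, limma-moderated adjusted p = 0.00685). Without hypothalamus 2 that difference was -9.40 points and fell short of the 10 points a call needs.

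Gene annotation of build rn5 was not used here, so most wide-range dyads carry no gene name. The known bases around each dyad were compared with 33469 RefSeq promoter windows of assembly GRCr8, a search chosen after values were seen. At least 25 known bases with at most 1 mismatch matched at 29 of the 1639 dyads, of which 21 matched several genes and 7 a single gene without meeting the stricter limit. The stricter limit asked for 40 known bases without mismatch on the same chromosome, and 1 dyad met it. It lay at chromosome 3, 167207292 to 167207293 in rn5, with 139 known bases matched, 101 bases upstream of the start of Spint3, a gene named for a Kunitz type serine peptidase inhibitor. The promoter stretch is shown because this dyad alone met the stricter limit. It is from RefSeq (GRCr8), chr3:173716102-173716223, minus strand, 5′ to 3′ toward the gene, with the dyad in capitals.
Spint3 promoter: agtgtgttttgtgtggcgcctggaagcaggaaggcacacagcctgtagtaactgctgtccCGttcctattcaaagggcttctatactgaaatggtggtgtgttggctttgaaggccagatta

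The Spint3 promoter dyad had 63.6%, 33.3%, 2.44% and 32.7% in hippocampus 1 to 4, against 59.9%, 42.3%, 58.5% and 34.3% in hypothalamus 1 to 4, on 53 to 164 calls. Numbers 1 and 4 differed little between the tissues, and the low level was that of hippocampus 3. Its 4 neighbours had hippocampus ranges of at most 8.78 points, so it was a lone dyad. In hypothalamus its own range was 25.5 points and those of its neighbours reached 32.9 points. Hippocampus averaged 33.0% ± 24.98 and hypothalamus 48.7% ± 12.5 (SD, n = 4 each). A gap of 15.7 points between them did not pass the quasi-binomial test with limma (adjusted p = 0.244).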

How the data were processed

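RRBS libraries were made from 4 hippocampus and 4 hypothalamus samples by MspI digestion, selection of fragments of 150 to 300 bases and bisulfite treatment, per the labels' protocols. The submitters' processing notes name Bowtie and build rn5. The sources used here do not give the methylation caller, read trimming or the treatment of duplicates. For each cytosine the authors deposited a count of methylated calls, a count of all calls and their ratio as a fraction. No listed position has under 10 calls, so shallower ones are not analysed here. The deposited fraction was not used, and levels were computed from counts.

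Calls were summed over the listed strands of a dyad. The tissue test was a quasi-binomial logistic model fitted to all dyads with a mean of 5% to 95%, with dispersion moderated by limma (version 3.58.1, R 4.3.3) and Benjamini-Hochberg adjustment over all of them. Library pairs were compared with 2-sided exact permutation tests (Python 3.11.15, numpy 2.4.6).

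The dyads named are the 3 of largest range in each tissue, the 3 lone ones with most neighbours, 5 runs with most members (of 5 tied runs of 4, the 4 with the highest lowest depth), up to 3 called dyads per direction without overlap, and those nearest the 50-point threshold, of which 2 are described. Members, lists and rules were chosen with earlier results of these data known. Alternatives covered depth, range, neighbour rule, dispersion, replicate block and left-out libraries. Chromosome X was kept apart.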

Additional observations from a re-analysis of the deposited data

Results flagged for a closer look

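In 100 groups of 4 libraries, Dixon's rule marked 19 in which 1 library lay far from the other 3, while chance alone marks about 1 in 20 groups. Of the 18 marked levels, those in a tissue that chose the dyad describe the choice. The 4 in hypothalamus at the dyad on chromosome 20, at both dyads on chromosome 6 and at 3341828 on chromosome 10 lie in a tissue with a range under 50 points. At chromosome 20, 28091484, hippocampus 2 was at 0% and hypothalamus 2 at 55.7%, and at chromosome 6, 47478624, hippocampus 3 was at 100% and hypothalamus 3 at 36.7%. At chromosome 9, 105400316, hippocampus 3 was at 4.30%, and at chromosome 18, 45460626, hypothalamus 1 was at 0%. At chromosome 10, 3341828, hippocampus 3 was at 54.5% and hypothalamus 2 at 35.4%. At chromosome 15, 22420153, hippocampus 4 was at 50%, at chromosome 2, 206116793, hippocampus 2 was at 50% and hypothalamus 2 at 54%, and at chromosome 10, 15674747, hypothalamus 3 was at 50%. In the run on chromosome 10, hippocampus 2 was at 91.6%, 94.0%, 95.2%, 92.8% and 91.6% at the 5 dyads, which lie within 18 bases. At chromosome 6, 138346003, hypothalamus 1 was the lowest of its tissue at 47.7%. The share of hypothalamus-chosen dyads that were high was 27.2% in hippocampus 3, against 25.9% to 26.1% in the other hippocampus libraries, a gap of about 1 point.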

How the results depend on the processing

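The number of wide-range dyads followed the thresholds. It was 5053 of 761556, 558 of 159307 and 65 of 25042 covered dyads at a minimum of 10, 30 and 50 calls. At ranges of 40, 60 and 80 points it was 3463, 884 and 453 of 392565. Where both strands were listed it was 256 of 75898. With 30 calls 424 were lone and 60 accompanied, and with an alike range of 50 points 143 were accompanied. Leaving out 1 library gave 1367 to 1544 wide-range, 1127 to 1245 lone and 193 to 249 accompanied dyads. All dyads called between tissues numbered 42520, 10829 and 9795 with 10 calls, 30 calls and 20 points, 0 with the dispersion of each dyad alone (40073 at an unadjusted p under 0.05) and 19661 to 27291 without 1 library. Wide-range dyads called numbered 0 with own dispersion, 6 with limma on logit levels (0.366% against 9.49% of all), 23 of 558 with 30 calls (4.12% against 12.3%) and 76 to 249 without 1 library. With the replicate block 471 wide-range dyads (28.7%) and 30981 of all dyads (14.3%) were called. Deviations of same-numbered libraries correlated at 0.224, 0.0623, 0.0728 and 0.210 for numbers 1 to 4 and those of unlike-numbered ones at -0.180 to 0.0177. The values of numbers 2 and 3 were small but above those of all unlike-numbered pairs. Because the labels name no animals, the main tissue test did not treat equal numbers as pairs. The same-number difference ran from -21.8 to -10.0 points at hippocampus-chosen and from -18.6 to -8.83 points at hypothalamus-chosen dyads when 1 number was left out. The tissue difference at chromosome 13, 106982463, lost its call without hypothalamus 2 (-9.40 points). The cause was not tested. The depth of hypothalamus 3 limits which dyads are covered.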

Other observations

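On chromosome X, which the rule leaves out, 19 of 3029 dyads with 20 or more calls in all 8 libraries (0.627%) had a range of 50 points or more in a tissue, 9 in hippocampus and 15 in hypothalamus. Male rats have a single X chromosome. In the tissue that did not choose them, 47.9% of the 96 levels at these X dyads were in the middle class of 30% to 70%, against 42.9% of 8872 levels at the autosomal wide-range dyads. At 3 of the 19 dyads no library was in the middle class. At chromosome X, 707250, hippocampus 1 to 4 had 75.6%, 0%, 79.3% and 3.92%, and hypothalamus 1 to 4 had 78.8%, 3.41%, 0% and 0%. At chromosome X, 6632494, hippocampus 1 to 4 had 3.51%, 85.4%, 85.0% and 83.8%, and hypothalamus 1 to 4 had 5.45%, 81.3%, 95.5% and 78.6%. Numbers 1, 2 and 4 had similar levels in both tissues at these 2 dyads, and number 3 differed widely at the first. At the third, chromosome X, 20324686, number 2 differed widely, with 27.5% in hippocampus and 91.1% in hypothalamus. These 3 dyads were named after their values were seen.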
